A study of Mus musculus with 9 samples.

Results

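Prostanoids and leukotrienes are lipid mediators made from arachidonic acid, a fatty acid released from cell membranes. Cyclooxygenases turn arachidonic acid into prostaglandin H2, and terminal synthases turn that intermediate into prostaglandin E2, prostaglandin D2, prostacyclin or thromboxane. In the gut wall, prostaglandin E2 acts through the receptors EP1 to EP4 on epithelium, smooth muscle, nerves and immune cells, and is cleared by uptake and by 15-hydroxyprostaglandin dehydrogenase. Leukotrienes arise from the same fatty acid through 5-lipoxygenase, and leukotriene A4 hydrolase makes the neutrophil attractant leukotriene B4. Prostaglandins are known in the colon for maintaining the mucosa and for roles in inflammation and tumor growth.

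The 10 genes described here were chosen as eicosanoid enzymes and receptors listed by symbol, and all 10 were among the 22262 genes with a count in the colon of 9 mice. They are the cyclooxygenases Ptgs1 and Ptgs2, the terminal synthases Ptges, Ptges3, Ptgis and Hpgds, the degrading enzyme Hpgd, the receptors Ptger3 and Ptger4, and Lta4h. They were chosen with their differences between environments already known, so those differences are given as a description. How many of the genes pass a threshold is stated only to show how that number moves with the processing, and supports nothing.

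All mice were wild-type (WT) C57BL/6N females aged 12 months, without the transgene used elsewhere in the study. The 4 mice of the standard environment (WT_SE, mice 1, 2, 3 and 5) lived 3 to 4 to a cage. The 5 mice of the enriched environment (WT_EE, mice 1 to 5) came from larger cages of 8 females with more bedding and nesting material, tunnels, climbing cubes, running and saucer wheels, and objects moved several times a week. Mice stayed in these cages from weaning, and normal chow is stated for the standard cages. How the 5 WT_EE mice were spread over cages was not given, so environment and cage cannot be told apart. RNA came from a flushed piece of upper colon 2 to 3 cm long, with all layers of the wall in it. Libraries read the 3′ end of polyadenylated RNA, and copies of a molecule were collapsed by a random tag, so values are molecule counts that do not grow with transcript length.

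Library totals ranged from 295535 to 454043 counts. On log scales, summed counts rose with the total at a slope of 0.94 for genes averaging 40 to 100 counts. Slopes were steeper, 1.29 for genes averaging 2 to 10 counts and 1.32 for those averaging 10 to 40. Most of the 10 genes described here lie in these 2 ranges, where CPM thus also varies with the library total. The slope was only 0.47 for genes averaging 100 to 400 counts, so CPM of such abundant marker genes also varies with the library total. A floor of 3 counts, which equals 6.61 to 10.2 CPM (count-per-million) depending on the library, was taken as the limit of detection. The epithelial markers Epcam, Cdh1, Krt8, Krt20, Vil1, Car1 and Slc26a3 averaged 264 to 713 CPM. Slc10a2, a bile acid transporter whose level varies along the intestine, parted the libraries into 4 with 103 to 117 counts (WT_SE mice 2 and 3, WT_EE mice 1 and 3) and 5 with 3 to 26 counts. These sets, called high and low Slc10a2 below, were defined after seeing the data, and each holds mice of both environments. The adipocyte hormone Adipoq ranged from 0 to 70 counts. The library names of WT_SE mice 1 and 3 carry another ending than the other 7. In bulk tissue, fewer cells of a type and less RNA per cell cannot be told apart.

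The cyclooxygenase promoters are shown first because Ptgs1 and Ptgs2, which catalyze the same reaction, differed from each other across the environments. Ptgs1 is generally regarded as the constitutive enzyme and Ptgs2 as the inducible enzyme. The sequences are RefSeq promoters on GRCm38.p6, each with 250 bases before the annotated start of transcription and 30 bases after it. Promoters were matched for 9 of the 10 genes, and Ptgis had none in the table. Capitals mark a C/EBP motif (TTGCNNAA), followed by a cyclic AMP response core (CGTCA) that shares its last 2 letters with an E-box (CACGTG). The first lies on the plus strand at chr1:150099781-150100060 and the second on the plus strand at chr2:36230176-36230455.
Ptgs2: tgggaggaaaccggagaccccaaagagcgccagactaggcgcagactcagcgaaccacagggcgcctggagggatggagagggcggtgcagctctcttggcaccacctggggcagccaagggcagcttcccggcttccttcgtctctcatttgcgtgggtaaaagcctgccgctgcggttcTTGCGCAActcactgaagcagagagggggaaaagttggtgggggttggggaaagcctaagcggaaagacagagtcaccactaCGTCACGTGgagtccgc
Ptgs1: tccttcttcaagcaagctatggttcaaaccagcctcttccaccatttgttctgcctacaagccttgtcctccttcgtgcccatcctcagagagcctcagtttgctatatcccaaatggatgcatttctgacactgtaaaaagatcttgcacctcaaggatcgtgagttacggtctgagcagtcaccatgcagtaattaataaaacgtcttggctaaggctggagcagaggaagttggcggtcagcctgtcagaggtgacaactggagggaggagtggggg

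In Ptgs2, the C/EBP motif began 69 bases before the annotated start, the cyclic AMP response core at base 14 after it and the E-box at base 17. Whether transcripts in these mice begin at that start was not tested, and another start would move these positions. None of the 6 motifs searched on both strands was found in the Ptgs1 window, and the AP-1 motif TGANTCA was found in 0 of the 9 promoters. The cyclic AMP response core was present in 20.8% of 32851 RefSeq promoters of 300 bases, the E-box in 7.15%, the C/EBP motif in 10.8% and the AP-1 motif in 7.81%. Among the 9 matched promoters, the cyclic AMP response core was also found in Ptges3, beginning at base 12 after the annotated start, and the C/EBP motif in Hpgds. The GC box GGGCGG stood in 6 of 9 promoters (Ptgs2, Ptges, Ptges3, Hpgd, Ptger3 and Ptger4) and in 35.7% of all, and TATAA stood in that of Hpgd and in 24.9% of all. For Hpgd, Ptger3 and Lta4h, the bases just after the start were not found in an annotated transcript of the gene, so these windows are less sure. These matches describe letters in a window and not binding.

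Ptgs2 (chr1:150100031-150108227), the inducible cyclooxygenase, was counted 1, 1, 1 and 2 times in WT_SE mice 1, 2, 3 and 5. It was counted 6, 12, 9, 11 and 15 times in WT_EE mice 1 to 5. Every WT_EE mouse lay above every WT_SE mouse, and every WT_SE mouse lay at or under the floor. Normalized levels were 3.55 ± 1.31 CPM in WT_SE (SD, n = 4) and 28.5 ± 11.9 CPM in WT_EE (SD, n = 5). Because the WT_SE counts were so low, the difference is given as a ratio of pooled counts, 53 in WT_EE against 5 in WT_SE. Scaled by library size, that ratio was 7.57, with an exact 95% interval of 3.05 to 24.3 that covers counting error only.

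Ptgs1 (chr2:36230426-36252272), the constitutive cyclooxygenase, had 37, 21, 14 and 26 counts in WT_SE and 28, 29, 32, 28 and 46 in WT_EE. Levels were 68.2 ± 21.1 CPM in WT_SE and 84.6 ± 19.6 CPM in WT_EE. The groups overlapped, and the log2 fold change of WT_EE against WT_SE was 0.27 with a standard error of 0.23. Ptgs1 was thus the more abundant cyclooxygenase in all 9 mice, while the balance between the enzymes differed with the environment. Ptgs2 made up 2.63%, 4.55%, 6.67% and 7.14% of cyclooxygenase molecules in WT_SE mice 1, 2, 3 and 5. In WT_EE mice 1 to 5 it made up 17.6%, 29.3%, 22.0%, 28.2% and 24.6%. The means were 5.25% ± 2.08 in WT_SE and 24.3% ± 4.74 in WT_EE, and the highest WT_SE share lay below the lowest WT_EE share. The share is a ratio within a library and does not depend on how libraries were scaled. The 95% Wilson intervals of single mice were wide, from 1.98 to 22.6% in WT_SE mouse 5 and from 8.35 to 33.5% in WT_EE mouse 1. Both cyclooxygenases together came to 71.8 ± 21.0 CPM in WT_SE and 113 ± 31.0 CPM in WT_EE.

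**Figure D1:**
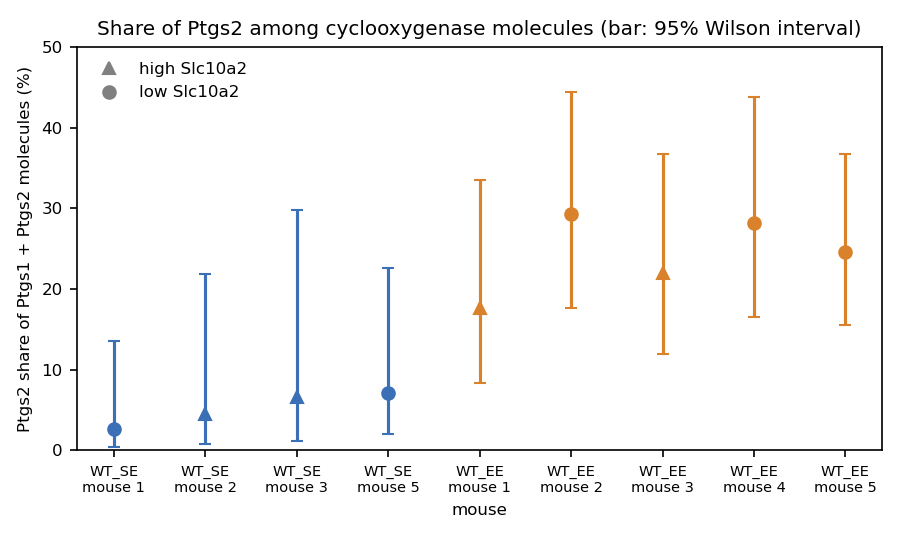
Share of Ptgs2 among Ptgs1 and Ptgs2 molecules in percent (vertical axis) in each mouse (horizontal axis). Blue is WT_SE and orange is WT_EE, triangles are libraries with high Slc10a2 and circles those with low Slc10a2, and bars are 95% Wilson intervals. The WT_EE shares run from 17.6 to 29.3% and the WT_SE shares from 2.63 to 7.14%.

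The cyclooxygenases also differed between libraries of high and low Slc10a2. Ptgs1 lay between 47.2 and 69.3 CPM in the 4 high libraries and between 70.9 and 106 CPM in the 5 low libraries, without overlap. Of all 17441 genes tested, 2.92% did not overlap between these sets of libraries. In a fit with the environment as a further term, the log2 difference of high against low libraries was −0.62 (standard error 0.22) for Ptgs1 and −1.05 (0.48) for Ptgs2. Within WT_EE, Ptgs2 was at 12.99 and 19.5 CPM in the high libraries and at 41.7, 33.9 and 34.6 CPM in the low libraries. The environments were apart in both sets, with means of 3.08 CPM in WT_SE and 16.2 CPM in WT_EE among high libraries, and 4.03 and 36.7 CPM among low libraries. In the 5 WT_EE mice, Ptgs2 was thus lower in the high than in the low libraries, a difference that was not tested. Those high libraries, of mice 1 and 3, also had the highest totals (454043 and 444520 counts). The difference between environments was present in each class.

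Other tissue measures also had different means in the 2 environments. The summed smooth muscle list (Acta2, Myh11, Tagln, Cnn1, Des and Actg2) was 1757 ± 195 CPM in WT_SE and 2134 ± 655 CPM in WT_EE, with 2834 CPM in WT_EE mouse 2 and 2827 CPM in mouse 4. All 6 of its genes had a positive log2 fold change and 2 had an unadjusted p under 0.05 and were higher in WT_EE, as were 4.3% of all genes tested, but the sums did not pass a two-sided exact permutation test (p = 0.365). The immediate early response list, genes such as Fos that are induced within minutes of a stimulus and to which Ptgs2 itself is often counted, was 658 ± 118 CPM in WT_SE and 821 ± 85.0 CPM in WT_EE. Its 13 genes all had a positive log2 fold change, 4 of them (Fos, Fosb, Nr4a1 and Nr4a2) with an unadjusted p under 0.05 and higher in WT_EE (4.3% of all genes). By the summed list, 4 of 5 WT_EE mice lay above every WT_SE mouse. However, WT_EE mouse 4 (760.8 CPM) was all but level with WT_SE mouse 1 (760.6 CPM). The exact permutation p of the summed immediate early list was 0.0556, and 0.589 after Benjamini-Hochberg adjustment over 16 lists. A single list could not have passed that adjustment with 9 mice. By gene, 1 of the 13 had an adjusted p under 0.05 (0.0252, edgeR), as did 0.0401% of all genes tested. For neutrophils, S100a8, S100a9, Cxcr2 and Ngp had no count in any library, while Ly6g reached 35 counts in WT_EE mouse 2. The part of these measures in the Ptgs2 result was not tested.

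Of the 3 prostaglandin E synthases, Ptges3 (chr10:128058954-128077272), a cytosolic protein that is also the heat shock protein 90 cochaperone p23, was the most abundant. It accounted for 84.6 to 94.9% of the summed counts of Ptges, Ptges2 and Ptges3 in WT_SE and 74.5 to 93.6% in WT_EE. Ptges3 levels were 172, 181, 189 and 202 CPM in WT_SE mice 1, 2, 3 and 5, and 149, 153, 152, 136 and 155 CPM in WT_EE mice 1 to 5. All WT_EE mice lay below all WT_SE mice. The means were 186 ± 12.7 and 149 ± 7.70 CPM, and the fitted log2 difference of WT_EE from WT_SE was −0.32 (standard error 0.14). The coefficient of variation between mice was 6.86% in WT_SE and 5.17% in WT_EE, below the 12.4% and 13.04% expected from counting error alone at these counts.

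Ptges (chr2:30889471-30929863), the inducible microsomal synthase that is often coupled to Ptgs2, was near the limit of detection. It had 7, 3, 0 and 5 counts in WT_SE and 2, 1, 2, 0 and 0 counts in WT_EE. All WT_EE mice were at or under the floor, as were 2 of the 4 WT_SE mice, and the groups overlapped. Levels were 10.1 ± 7.83 and 2.43 ± 2.24 CPM, and the ratio of pooled counts was 0.238 with an exact 95% counting interval of 0.0677 to 0.689. The lower counts in WT_EE came from the low Slc10a2 libraries, where WT_SE averaged 15.9 CPM and WT_EE 1.16 CPM. In the high libraries the averages were 4.17 and 4.33 CPM. The difference between these sets was not tested.

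Ptgis (chr2:167191805-167240604), the prostacyclin synthase of endothelium and smooth muscle, was counted 3 to 8 times in WT_SE mice and 4 to 11 times in WT_EE mice. The groups overlapped at 17.4 ± 4.89 and 20.6 ± 11.4 CPM (log2 fold change 0.17, standard error 0.43). WT_EE mouse 2 was highest at 38.2 CPM. Hpgds (chr6:65117293-65144908), the prostaglandin D synthase of mast cells, macrophages and other blood-derived cells, was at 58.8 ± 24.1 CPM in WT_SE and 47.6 ± 6.89 CPM in WT_EE (log2 fold change −0.30, standard error 0.26). WT_SE mouse 2, at 94.5 CPM, lay far above the other 8 mice, which ran from 39.3 to 55.4 CPM. Without that mouse the log2 fold change was 0.02, so the sign of the Hpgds difference rested on WT_SE mouse 2. Of 8 mast cell markers, Cpa3, Cma1, Mcpt4, Fcer1a and Ms4a2 had no count in any library.

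Hpgd (chr8:56294585-56321043), which inactivates prostaglandins, had the highest mean level of the 10 genes, although its step to Ptges3 did not pass a test (below). Its levels were 232, 233, 263 and 166 CPM in WT_SE and 199, 209, 173, 154 and 182 CPM in WT_EE. The groups overlapped through WT_SE mouse 5, and the means were 224 ± 40.9 and 184 ± 21.5 CPM (log2 fold change −0.28, standard error 0.15). The predicted transcript Gm45540 lies within Hpgd on the same strand and had 4 to 25 counts a library. With its counts added, Hpgd came to 266 ± 47.4 CPM in WT_SE and 216 ± 20.05 CPM in WT_EE.

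Ptger4 (chr15:5206661-5244187), which encodes the EP4 receptor for prostaglandin E2, was the main prostaglandin E receptor by count. It made up 71.8 to 89.7% of the summed counts of Ptger1 to Ptger4 in WT_SE and 77.0 to 91.2% in WT_EE. Levels were 133 ± 41.6 CPM in WT_SE and 129 ± 20.6 CPM in WT_EE (log2 fold change −0.03, standard error 0.19). The WT_SE mice ran from 77.8 to 166 CPM and enclosed all WT_EE mice, which ran from 108 to 155 CPM. The overlapping genes Ttc33 and Gm15937 lie on the other strand, and whether counting used strand was not given. Ptger3 (chr3:157566892-157645888), the EP3 receptor known on enteric neurons and smooth muscle, was counted 3 to 8 times in WT_SE mice and 0 to 8 times in WT_EE mice. It was at 13.4 ± 6.22 and 10.8 ± 6.46 CPM (log2 fold change −0.22, standard error 0.53). At these counts, only a large difference in Ptger3 could have been seen.

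Lta4h (chr10:93453411-93484875), the hydrolase that makes leukotriene B4, had 31, 36, 20 and 34 counts in WT_SE and 47, 33, 53, 43 and 44 in WT_EE. Its levels were 80.8, 100, 67.5 and 92.7 CPM in WT_SE mice 1, 2, 3 and 5, and 102, 115, 115, 132 and 102 CPM in WT_EE mice 1 to 5. No WT_EE mouse lay within the WT_SE range, although the lowest WT_EE mouse was close to WT_SE mouse 2. The means were 85.3 ± 14.3 and 113 ± 12.7 CPM (log2 fold change 0.39, standard error 0.19). Without WT_SE mice 1 and 3, whose library names end differently, the log2 fold change was 0.23. The pseudogene Gm4854 is 91.5% identical to the last part of Lta4h and had 0 counts.

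**Figure D2:**
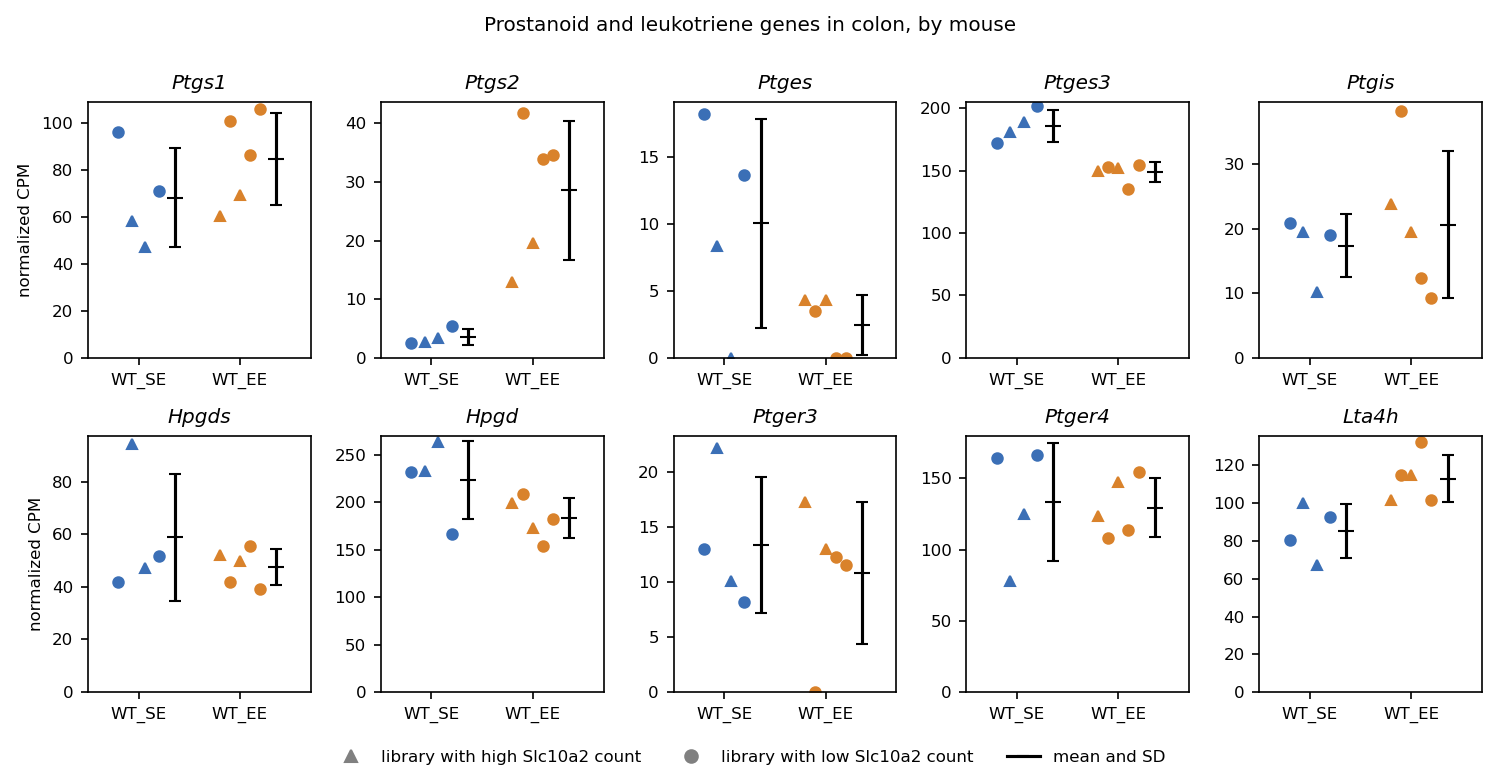
Normalized CPM (vertical axes, each from 0) of the 10 genes in each mouse, with WT_SE in blue and WT_EE in orange. Triangles are libraries with high Slc10a2, circles those with low Slc10a2, and black marks show the mean and SD of each group. The groups stand apart in Ptgs2, Ptges3 and Lta4h and overlap in the other 7 genes.

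Across the 10 genes, 4 had an unadjusted p under 0.05 with edgeR's quasi-likelihood test. Ptgs2 and Lta4h were higher in WT_EE, and Ptges and Ptges3 lower. This threshold was passed by 7.64% of all genes tested, 4.3% higher and 3.34% lower in WT_EE, and since the genes were picked from this comparison, nothing is read from their count. The groups did not overlap for 3 of the 10 genes, against 2.59% of all genes (1.39% higher and 1.2% lower in WT_EE). The median log2 fold change was −0.13 over the 10 genes and 0.01 over all genes. Differences in Lta4h and Ptges3 were small beside those in Ptgs2 and Ptges, as the plot of log2 fold changes shows.

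**Figure D3:**
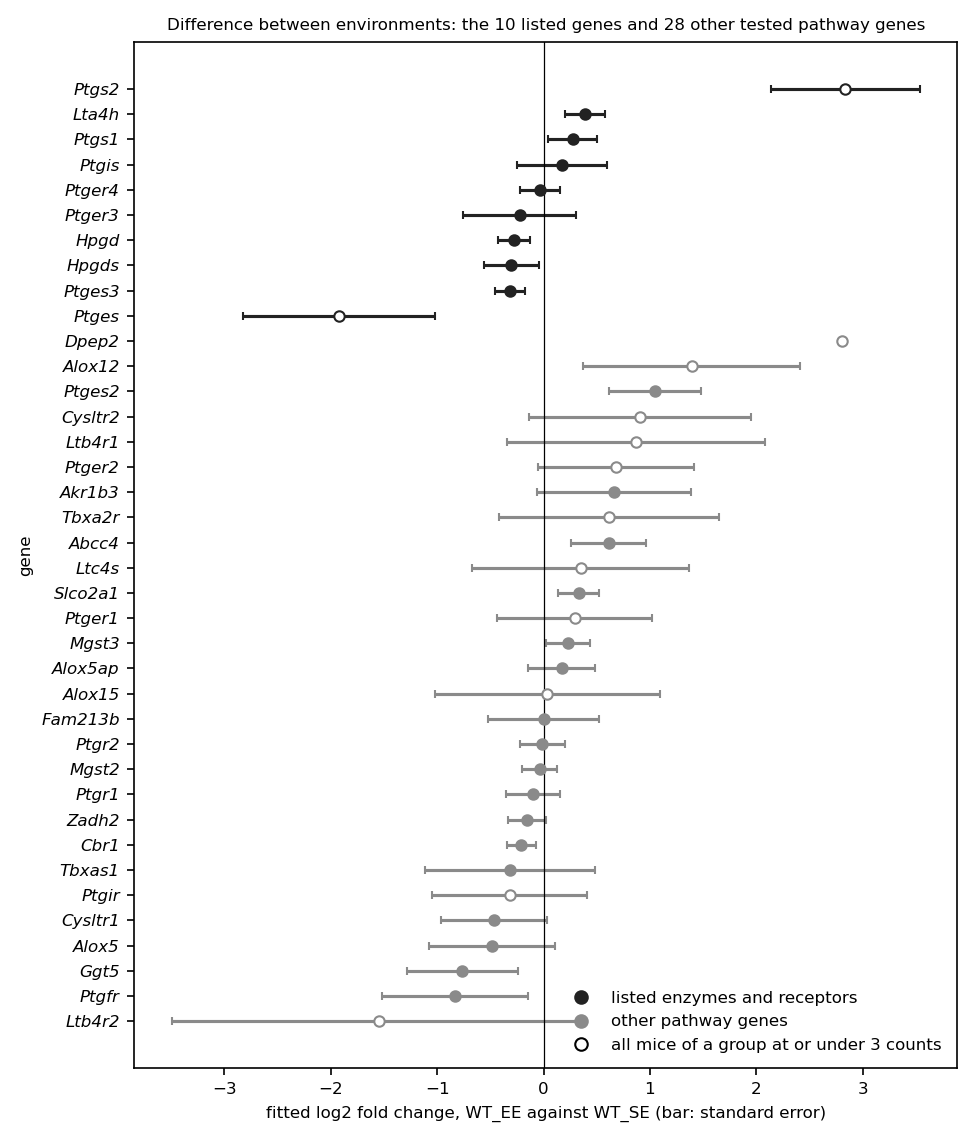
Fitted log2 fold change of WT_EE against WT_SE (horizontal axis) for each gene (vertical axis), with bars for the standard error; Dpep2 has no bar, since it had no count in WT_SE. Black points are the 10 genes described, gray points the 28 other tested pathway genes, and open points have all mice of a group at or under 3 counts. Ptgs2 at 2.84 and Ptges at −1.92 lie farthest from 0 among the black points, both with open symbols, while the other 8 black points lie within 0.40 of 0.

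**Figure D4:**
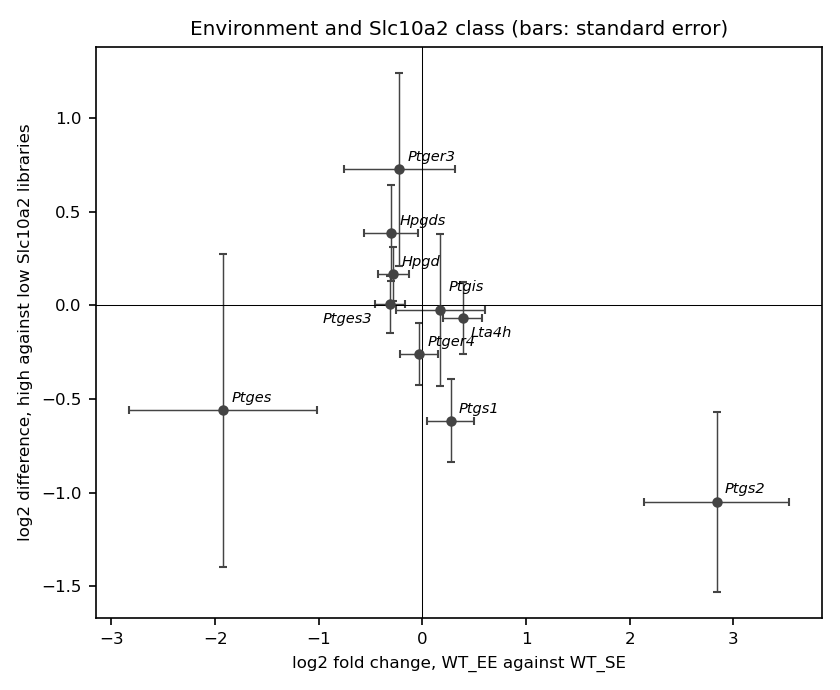
Log2 fold change between environments (horizontal axis) against the log2 difference between libraries of high and low Slc10a2 (vertical axis) for the 10 genes, with standard errors as bars. Ptgs2 and Ptgs1 lie below 0 on the vertical axis, at −1.05 and −0.62, while Ptges3, Ptgis and Lta4h lie near 0.

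On the CPM scale, which for 3′ counts compares genes without a length correction, the mean level over 9 mice fell from Hpgd (201) through Ptges3 (165), Ptger4 (131), Lta4h (101), Ptgs1 (77.4), Hpgds (52.6), Ptgis (19.2), Ptgs2 (17.4) and Ptger3 (11.97) to Ptges (5.82). Of the 9 steps between neighbors, the steps from Ptges3 to Ptger4 and from Hpgds to Ptgis passed a two-sided exact sign-flip permutation test over mice, each with an adjusted p of 0.0352. The other 7 neighboring pairs did not pass, with adjusted p from 0.0527 to 0.758. The order within these 7 pairs, among them Ptgis with Ptgs2 and Ptgs2 with Ptger3, was therefore not settled. Genes that are not neighbors were not compared. The order is over mice of both environments, and the order within each was not tested. Mean Ptgs2 lay below mean Ptges in WT_SE (3.55 and 10.1 CPM), where both were near the floor. In WT_EE, mean Ptgs2 lay above mean Ptgis (28.5 and 20.6 CPM), but not in mouse 1 (12.99 and 23.8 CPM) or mouse 3 (19.5 CPM for each).

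The other genes of the pathway were listed by role. Of 37 further genes, 33 had a count, 28 were tested, and 1 had an unadjusted p under 0.05. As 7.64% of all genes tested passed this threshold, the count is not above the background and shows nothing particular to these genes. None passed after adjustment over all genes tested with edgeR, as 0.0401% of all genes did, and DESeq2 and limma-voom called 0 of them at an unadjusted p under 0.05. Log2 fold changes were positive for 16 and negative for 12, with a median of 0.10. Of the 33 counted genes, 9 never exceeded the floor in any library.

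Among enzymes of prostanoid synthesis, the called gene was Ptges2, a membrane-associated prostaglandin E synthase, with 5, 7, 3 and 6 counts in WT_SE and 19, 2, 22, 6 and 14 in WT_EE. The groups overlapped because WT_EE mice 2 and 4 were as low as WT_SE. The fitted log2 difference was 1.05 (standard error 0.43, unadjusted p = 0.0155, adjusted p = 0.480, edgeR with Benjamini-Hochberg adjustment), and it was not called without WT_EE mouse 3. WT_EE mice 1 and 3 are high Slc10a2 libraries, and the log2 fold change was 1.53 within those libraries and 0.48 within the low ones. Cbr1, a carbonyl reductase that can convert prostaglandin E2, was at 269 ± 34.7 and 233 ± 21.5 CPM (adjusted p = 0.743). Fam213b, a prostaglandin F synthase, was at 16.2 ± 9.13 and 15.05 ± 11.8 CPM.

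Of the other prostanoid receptors, 5 were tested and 0 were called, which at the same background is likewise not read as a result. Ptger2, the EP2 receptor, was at 4.86 ± 2.28 and 8.23 ± 3.99 CPM, and Ptgfr, the prostaglandin F receptor, at 9.16 ± 3.21 and 4.84 ± 3.47 CPM, with most counts of each at or under the floor. The prostaglandin uptake carrier Slco2a1 was at 97.3 ± 24.7 and 123 ± 24.7 CPM (log2 fold change 0.33, adjusted p = 0.714). The reductase Zadh2, which acts on prostaglandin breakdown products, was at 117 ± 14.2 and 105 ± 18.2 CPM. Of the 5 tested uptake, export and breakdown genes, 0 had an unadjusted p under 0.05 with edgeR, and at a background of 7.64% nothing is read from so small a number.

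Among the further leukotriene genes listed, Mgst2 and Mgst3, microsomal enzymes that can make leukotriene C4, were the most abundant. They were at 193 ± 30.8 and 92.5 ± 32.1 CPM in WT_SE and 184 ± 44.4 and 110 ± 23.0 CPM in WT_EE. Alox5, which starts leukotriene synthesis, was counted only 3 to 4 times in WT_SE mice and 1 to 4 times in WT_EE mice. Of the cysteinyl leukotriene receptors, Cysltr1 was at 15.3 ± 4.55 and 11.1 ± 6.64 CPM, and Cysltr2 at 2.69 ± 3.11 and 5.66 ± 5.002 CPM. The lipoxygenases Alox12 (2.03 ± 1.35 and 6.20 ± 2.56 CPM) and Alox15 (3.29 ± 4.93 and 4.002 ± 3.93 CPM) were near or under the floor.

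Across mice, after subtracting the mean of each environment, the genes could be set beside 16 summed marker lists. These correlations are descriptive, since they rest on 9 libraries that every value shares, and 5 of 160 pairs reached an absolute Pearson r of 0.80. Lta4h moved with the tuft cell list (r = 0.94), whose counts were mostly Dclk1, and with the mast cell list (r = 0.95), of which only Mcpt1, Mcpt2 and Tpsb2 had any count and none more than 3. Ptgs2 and Ptgs1 moved against Slc10a2 (r = −0.84 and −0.81), and Ptgs2 with smooth muscle (r = 0.78). For Ptgs2, r was 0.49 with the immediate early list and 0.72 with the neutrophil list, whose counts were nearly all Ly6g. With macrophages r was −0.62, with T cells −0.73 and with B cells −0.65. Of 4 T cell genes, 2 never exceeded the floor, as did 2 of the 3 B cell genes with a count. The summed B cell list averaged only 2.22 CPM in WT_EE. Ptger4 moved with the immediate early list (r = 0.78) and against enteric neurons (r = −0.82). No list sum passed between environments after adjustment over the 16 lists (lowest adjusted p = 0.589, exact permutation test). The smallest unadjusted p that 9 mice allow is 0.00794, so a single list could not have passed after this adjustment, and the test says little about whether the lists differed.

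**Figure D5:**
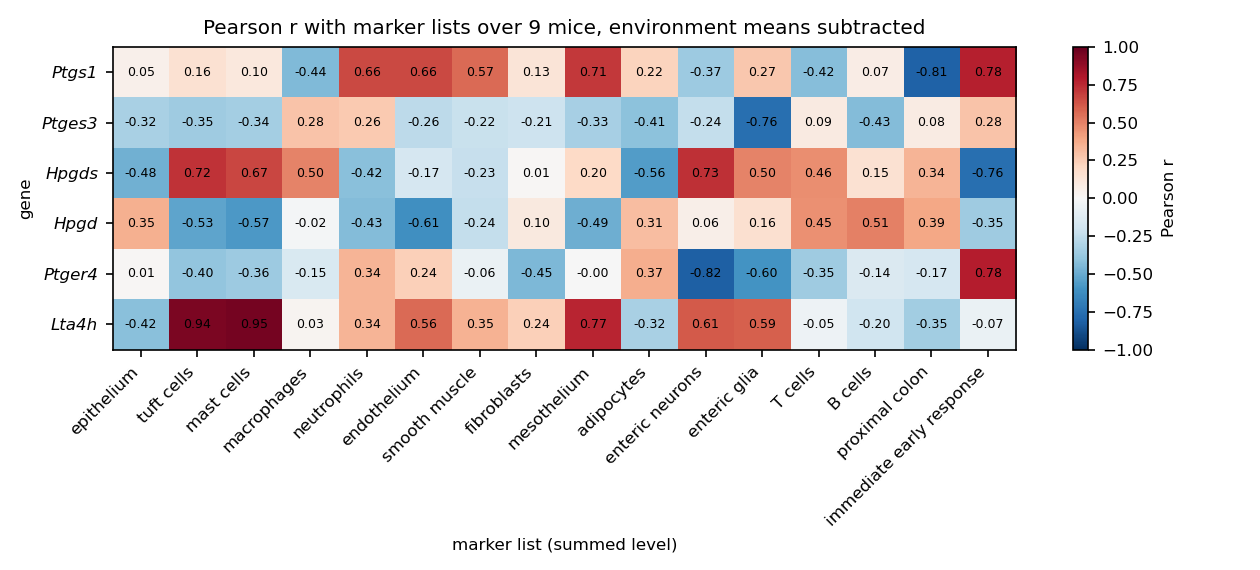
Pearson r, over 9 mice with environment means subtracted, of log2 CPM of the 6 genes with a mean of at least 10 counts (rows) with log2 of summed marker lists (columns). Red is positive and blue negative, and the numbers give r. The cells farthest from 0 are those of Lta4h with tuft and mast cell lists, at 0.94 and 0.95.

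Genes whose pattern over the 9 mice was most like that of Ptgs2, by Pearson r of log2 CPM with environment means subtracted, were Prdx1 (0.97), Ostc (0.94) and Retreg2 (0.94), among 8493 genes with a mean of at least 10 counts. For Ptgs2, 10 genes reached an r of 0.90, and since its WT_SE counts were 1 or 2, this likeness rests mostly on the WT_EE mice. For Hpgd they were Mir22hg (0.98), Cyp3a13 (0.95) and Zfp532 (0.95), and 16 genes reached 0.90. With so many genes and 9 mice, values of this size are a ranking only.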

How the data were processed

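Colon RNA of 9 mice was analysed, 4 WT_SE and 5 WT_EE. The authors prepared 3′ libraries with unique molecular identifiers and deposited molecule counts per Ensembl gene, unnormalized. The submitters' notes name fastp 0.20.0, STAR 2.7.0f, featureCounts 1.6.0, UMI-tools and GRCm38.p6, and strand use in counting was not given in the sources used here. Of 22262 genes, 22248 were paired with a symbol. Genes reaching 4 CPM in any 1 library (17441) were fitted with edgeR 4.0.16 in R 4.3.3 (TMM scaling, quasi-likelihood test, environment as the only term), with Benjamini-Hochberg adjustment over all of them. A gene counted as called at an unadjusted p of 0.05. List sums were compared by exact permutation of the 9 mice (python 3.11.15, scipy 1.17.1). Where no source says that mice came from separate cages, p-values measure only the spread between these mice. Within each environment, no library was a repeat of another by a chi-square comparison of counts, and pairs across environments were not compared.

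The 10 genes, the other pathway genes and the marker lists were chosen with earlier results of these data known. The named genes are the 10 genes, called genes of the other pathway list, the 2 most abundant of the rest in each role, and the 3 genes most like Ptgs2 and Hpgd. Alox5 and the marker genes were named after their values were seen. Alternatives were other scalings, filters and tests (DESeq2 1.42.0, limma-voom from limma 3.58.1), each mouse left out, the mouse number as a block, and the library-name ending. Slc10a2 class, library total and fat as terms were added after seeing the data. The fits were tested on simulated data in which only genes averaging at least 10 counts were changed. Recovery of a difference was therefore not tested at the lower mean counts of Ptgs2, Ptges, Ptgis and Ptger3.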

Additional observations from a re-analysis of the deposited data

Results flagged for a closer look

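In 46 groups of 4 or 5 mice, a single mouse stood apart from the others by Dixon's test in 4 cases, where chance gives about 1 in 20, or 2.3. Ptges3 in WT_EE mouse 4 was lowest, at 136 CPM against 149 to 155 CPM in the other WT_EE mice. Ptgis in WT_SE mouse 3 was lowest, at 10.1 CPM from 3 counts, against 19.1 to 20.8 CPM. Ptgfr in WT_EE mouse 3 was highest, at 10.8 CPM from 5 counts, against 2.17 to 4.62 CPM. Alox12 in WT_SE mouse 3 was lowest, at 0 CPM, against 2.60 to 2.78 CPM from 1 count each.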

How the results depend on the processing

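The 1333 genes called between environments became 804 with filterByExpr, 643 with DESeq2, 685 with the library-name ending as a term, 677 without both libraries of that ending (WT_SE mice 1 and 3), 408 at a p limit of 0.01, and 898 to 1583 with each mouse left out. Upper quartile scaling turned the share of calls higher in WT_EE from 56.3% to 44.96%. Of the 10 genes, which were chosen from this comparison so that their calls are no evidence, 4 were called, and 2 to 4 with each mouse left out (2 without WT_SE mouse 1, WT_SE mouse 3 or WT_EE mouse 4). The number was 2 with filterByExpr, which tested 6 of them without Ptgs2 and Ptges, 1 with DESeq2, 1 at a p limit of 0.01, and 2 within either Slc10a2 class. Ptgs2 was called in 24 of 24 alternatives (log2 fold change 2.30 to 3.12), Ptges in 18 of 24 (−3.64 to −0.06, the extremes within the low and high Slc10a2 libraries), Ptges3 in 13 of 25 and Lta4h in 12 of 25, each in its main direction. Ptges was not called without WT_SE mouse 1 or 5 or WT_EE mouse 5, Ptges3 not without WT_SE mouse 3 or 5 or WT_EE mouse 1 or 4, and Lta4h not without WT_SE mouse 1 or 3 or WT_EE mouse 2, 3 or 4. The other pathway list, with 1 call, had 0 with filterByExpr, DESeq2, limma-voom, the ending as a term, without its libraries, the library total as a term, low Slc10a2 libraries alone or a p limit of 0.01, 4 in high Slc10a2 libraries alone, and 0 to 2 with each mouse left out (0 without WT_EE mouse 3; 2 without WT_SE mouse 1 or 2, or WT_EE mouse 1 or 5). No call changed direction, and the causes were not tested. Mouse numbers did not pair the samples (same-number correlations −0.02 to 0.13). With the replicate block, 1152 genes, 1 of the 10 genes (Ptgs2) and 1 pathway gene were called, against 1111, 2 and 1 in the same 8 mice without it. Depth limits Ptgs2 in WT_SE, Ptges, Ptgis and Ptger3, with counts at or near the floor of 3.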
